A study of Bos taurus with 12 samples.

Results

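Oocytes of prepubertal heifers were compared before and after maturation in culture. The comparison took all 6 prepubertal arrays of the 12 in the series, 3 of immature oocytes with an intact germinal vesicle (GV) and 3 of oocytes at metaphase II (MII), and every probe set on the array that was not a manufacturer's control, 24016 of 24128. It was made with all 12 arrays in the fit and again with 10, leaving out the replicate 1 array of both prepubertal stages, because both read the oocyte genes GDF9, BMP15, ZP2 and ZP4 below 12 on the log2 scale. Most results given are those that stood in both fits. The prepubertal donors were heifers aged 9 to 12 months, whose ovaries were removed on farms with a spay device, and the adult donors were slaughtered cows. All animals were Japanese Black cattle. Cumulus-oocyte complexes came from follicles of 2 to 8 mm. GV oocytes were collected directly after aspiration. MII oocytes had spent 20 to 22 h in TCM 199 medium with fetal bovine serum and had put out a visible first polar body. Both stages were stripped of cumulus cells with hyaluronidase and pipetting and pooled, 50 oocytes to a pool, and the RNA was amplified before hybridisation to an Affymetrix bovine array. Each group had 3 pools, which the labels name biological replicates without tying them to an animal or a day, so a p-value here measures the spread between these pools. A pool of oocytes that reached MII also leaves out those that did not.

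A GV oocyte is arrested in meiotic prophase, with a large nucleus and a store of messenger RNA laid down during growth. When it resumes meiosis the nuclear envelope breaks down, the spindle forms, one chromosome of each pair leaves in the first polar body and the egg stops at metaphase of the second division. Transcription is largely silent through this period, and messages change through adenylation, deadenylation and decay.

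The replicate 1 arrays stood apart at both stages. GDF9, a growth factor made by the oocyte, read 7.47, 13.58 and 14.35 in GV replicates 1, 2 and 3 and 6.27, 13.15 and 12.09 in MII replicates 1, 2 and 3. BMP15, its partner, read 7.08, 14.21 and 14.72 in GV pools and 6.55, 14.77 and 14.70 in MII pools in the same order. The zona pellucida genes ZP2 and ZP4 read 4.99 and 4.57 in GV replicate 1 and 7.98 and 6.22 in MII replicate 1, but 12.55 to 15.33 in the other 4 arrays. All 10 oocyte genes on the array lay above the array median in those 4 arrays, against 2 in GV replicate 1 and 6 in MII replicate 1. PTX3, a gene of expanding cumulus cells, read 14.66, 2.62 and 4.46 in GV pools and 14.53, 7.54 and 8.74 in MII pools. The summed linear level of 29 cumulus and granulosa markers was 17.95 (log2) in GV replicate 1 and 18.57 in MII replicate 1, and between 13.36 and 14.17 in the rest. The 19 theca and stroma markers summed to 15.23 and 16.14 against 10.25 to 11.35. In pooled RNA, fewer cells of a type and less RNA per cell cannot be told apart. Adult GV replicate 1 also read low for the oocyte genes (GDF9 9.29, BMP15 6.47, ZP2 10.05 and ZP4 5.00). Another difference ran along the low end of the scale. The share of probe sets under 4 was 9.0%, 8.7% and 27.6% in GV replicates 1, 2 and 3 and 22.7%, 24.4% and 27.9% at MII, so GV replicates 1 and 2 held fewer dim readings than the rest. The array medians were 7.63, 7.52 and 5.65 at GV and 6.52, 5.93 and 5.64 at MII.

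**Figure D1:**
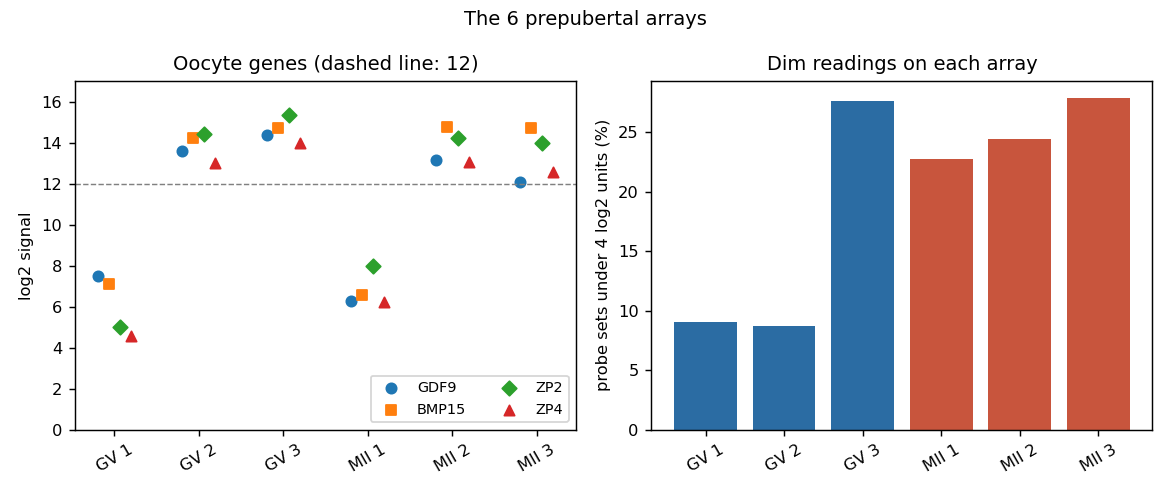
Left, log2 signal of GDF9, BMP15, ZP2 and ZP4 in each of the 6 prepubertal arrays, with a dashed line at 12; right, the percentage of probe sets under 4 log2 units on the same arrays (GV blue, MII red). The 4 genes lie below 8 in both replicate 1 arrays and above 12 in the other 4, and the dim share is lowest in GV replicates 1 and 2 (9.0% and 8.7%).

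Across 14409 probe sets with a mean above the 40th percentile (5.57), no probe set passed an adjusted p of 0.05 in either fit. In limma's moderated test with Benjamini-Hochberg adjustment the lowest adjusted p was 0.999 with 12 arrays and 1 with 10. Weighting arrays by their quality, with 12 arrays, called 5 probe sets. At an unadjusted p under 0.05 there were 492 probe sets with 12 arrays, which is 3.41% of those tested, and 551 with 10 arrays, which is 3.82%. Both shares lie below 5%, the share that this threshold passes where nothing differs. With adult GV replicate 1 left out of both fits, the counts were 676 with 12 arrays as the start and 1007 with 10. The first lies below 5% of the 14409 and the second above it. With 12 arrays 176 were higher (1.22%) and 316 lower (2.19%), and with 10 arrays 274 were higher (1.9%) and 277 lower (1.92%). A total of 273 probe sets (1.89%) were past the unadjusted threshold with the same sign in both fits, 118 higher at MII (0.819%) and 155 lower (1.08%). They are called here the probe sets that stood in both. The fits share 10 arrays, so standing in both measures only how little a value leaned on the replicate 1 pair. Of the 273, 157 carried 1 gene symbol and stood for 153 genes. Since these arrays chose the 273, the next counts only describe them. The 3 MII and 3 GV values did not overlap for 194 of them, 86 higher and 108 lower, against 1400 of all probe sets (9.72%), 528 higher (3.66%) and 872 lower (6.05%). The MII value was on the same side in each of the 3 replicate numbers for 251, against 4844 of all (33.6%). The number that stood in both was 136 without GV replicate 2, 159 without MII replicate 2 and 95 without MII replicate 3. The 12-array count of 492 became 250 without GV replicate 2, 852 without GV replicate 3, 963 without MII replicate 1 and 322 without MII replicate 3. Of these, 852 and 963 lie above 5% of the 14409.

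Only the replicate 1 pools were paired better by like than by unlike numbers. Their deviations from the stage means correlated at 0.609 across probe sets. For GV replicate 2 the correlation was 0.149 with MII replicate 2 and 0.145 with MII replicate 3. For GV replicate 3 it was 0.306 with MII replicate 3 and 0.307 with MII replicate 2. With the replicate number as a block, 1455 probe sets (10.1%) were past an unadjusted p of 0.05 in the 6 prepubertal arrays, against 543 (3.77%) without it. The lowest adjusted p in limma was 0.156 with the block, and no probe set was past 0.05 after adjustment. In the 4 prepubertal arrays of replicates 2 and 3, the unadjusted counts were 1573 with the block and 1512 without it. The part of the replicate 1 pair in the larger count from 6 arrays was not tested.

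**Figure D2:**
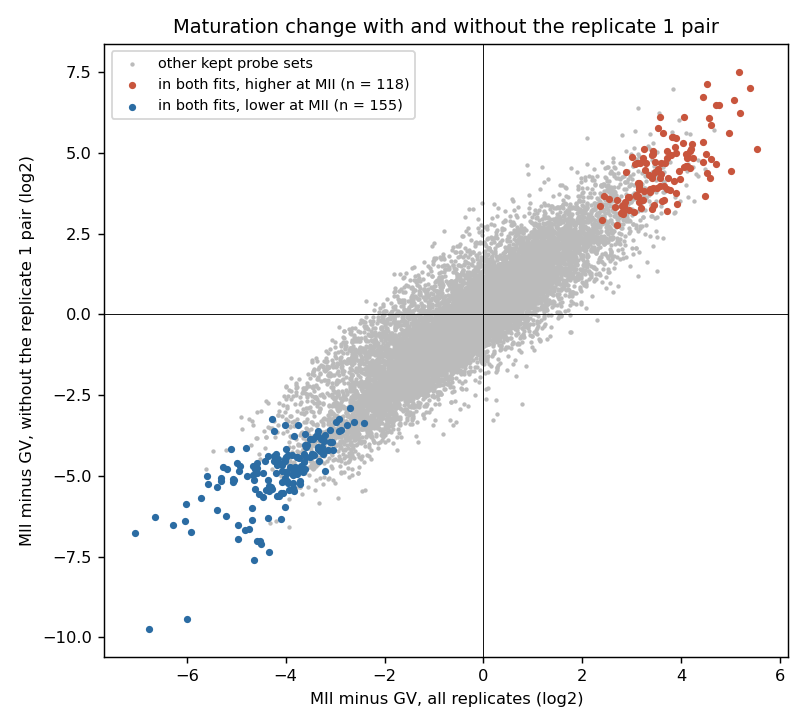
Difference MII minus GV (log2) for each kept probe set in the 12-array fit (x axis) and in the 10-array fit without the replicate 1 pair (y axis), with the 273 probe sets that stood in both coloured by direction. The 118 higher probe sets lie to the upper right and the 155 lower ones to the lower left.

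The direction of the differences went with the level. Probe sets that stood higher had a median level of 6.12 at GV and 9.78 at MII, and those that stood lower had 8.44 at GV and 4.32 at MII. Of the 155 lower ones, 124 had a value under 4 on a prepubertal array, against 59 of the 118 higher ones and 33.0% of all kept probe sets. The kept probe sets were split into 4 equal groups by mean level. In the dimmest, 8 stood higher and 60 lower. In the brightest, at 9.19 and above, 25 stood higher and 8 lower. The median difference of all probe sets was -0.29 with 12 arrays and -0.14 with 10, and by group from dim to bright it was -0.90, -0.41, 0.20 and 0.21 with 10. Other ways of putting the arrays on one scale moved the balance of directions. The share that stood higher was 43.2% on the deposited values, 71.1% after quantile normalisation (145 higher, 59 lower), 82.2% after centring each array on its median (323 higher, 70 lower) and 78.3% with a letter b in some sample titles, whose meaning the labels do not give, as a covariate (318 higher, 88 lower). Centring moved the median difference of all probe sets to 0.62 with 12 arrays and 0.66 with 10. Of the 273, 143 also stood after quantile normalisation, 180 after centring and 104 with the title letter. That letter was carried by GV arrays only, at both ages, so it is partly confounded with stage. At prepubertal GV it marked the arrays with fewer dim readings. Which direction was the commoner one depended on the scaling.

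Among the 80 kept genes of a list of chromatin modifiers, 4 stood higher at MII in both fits and none lower, beside 42 higher and 61 lower among all 6842 kept genes. The list was chosen with earlier results of these data known, and all genes are not matched to it in level. Its counts and medians therefore only describe it. In the 10-array fit 50 of the 80 read higher at MII and 30 lower, with a median difference of 0.48 against -0.13 over all genes. With 12 arrays the counts were 45 and 35 and the median 0.07 against -0.28. Within replicate numbers 1, 2 and 3 the list's median differences were -0.53, 0.57 and 0.52, beside -0.44, -0.27 and -0.01 over all genes. After quantile normalisation the list's medians were 0.66 and 0.72 with 12 and 10 arrays, beside 0.06 and 0.12 over all probe sets, and after median centring 0.98 and 1.28 beside 0.62 and 0.66. The list takes 1 probe set per gene, unlike these backgrounds. On the deposited values the median was -0.29 and -0.14 over all probe sets and -0.28 and -0.13 over all genes. PCGF1, a ring-finger subunit of a Polycomb repressive complex, read 3.42, 2.79 and 1.04 in GV pools and 5.57, 9.43 and 8.44 in MII pools, a difference of 5.39 (SE 1.84) with 12 arrays and 7.02 (SE 2.21) with 10. All of its GV values lay under 4, so its level before maturation was near the dim end of the array. KDM3A, a demethylase of histone H3 lysine 9, read 8.67, 5.96 and 0.92 in GV pools and 10.61, 9.95 and 10.19 in MII pools, with differences of 5.07 (SE 1.75) and 6.63 (SE 1.95). Its 3 MII values lay close together, while its GV values spread widely. ING4, a histone reader of an acetyltransferase complex, read 7.73, 4.47 and 5.96 in GV pools and 7.90, 10.17 and 10.37 in MII pools. NSD3, a methyltransferase of histone H3 lysine 36, read 7.98, 8.32 and 2.16 in GV pools and 9.03, 8.90 and 11.67 in MII pools on one probe set, and a second probe set of the gene also stood higher. In ING4 the highest GV and the lowest MII value, both of replicate 1, nearly met, and in NSD3 the stages were also separated by a narrow gap.

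ARID1A and CHD4 are on the same list, but another probe set of each stands for them there, because it was the brightest, and the brightest probe sets of ARID1A and CHD4 had 10-array differences of 2.21 and 0.75. ARID1A, the DNA-binding subunit of a SWI/SNF remodelling complex, read 9.07, 2.69 and 4.66 in GV pools and 9.61, 9.11 and 9.20 in MII pools on the probe set that stood. CHD4, the ATPase of the NuRD complex, read 9.18, 2.96 and 6.02 in GV pools and 11.84, 9.75 and 9.91 in MII pools. Both had a difference of over 5 with 10 arrays (5.48, SE 1.73, and 5.34, SE 2.09). ZMYND8, a reader of acetylated histones, read 4.73, 4.73 and 6.03 in GV pools and 7.13, 9.96 and 10.92 in MII pools, and the groups did not overlap. The lowest difference of the list was that of SETD5, at -5.23 with 10 arrays, which did not stand in both, and BRD8, a bromodomain protein, read 11.03, 11.33 and 13.14 in GV pools and 10.48, 9.83 and 8.72 in MII pools. Of 17 kept histone genes 6 read higher and 11 lower with 12 arrays (median -0.30), and none stood in both.

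Outside that list, the largest differences with higher values at MII fell on genes of several kinds. NCAPD2, a subunit of condensin, which compacts chromosomes for division, read 3.30, 5.15 and 1.56 in GV pools and 6.98, 8.49 and 9.45 in MII pools (4.97, SE 1.80, and 5.61, SE 2.25). RBFOX2, a splicing regulator, read 4.79, 3.38 and 6.26 in GV pools and 11.16, 9.24 and 10.65 in MII pools, with 5.54 (SE 1.40) and 5.13 (SE 1.70). It had the smallest unadjusted p of these 15 genes in the 12-array fit. PHB1, a prohibitin of the inner mitochondrial membrane, read 7.51, 3.35 and 4.04 in GV pools and 8.23, 9.53 and 8.80 in MII pools. CHSY1, which polymerises chondroitin sulfate, read 8.69, 8.12 and 3.60 in GV pools and 9.97, 11.30 and 10.75 in MII pools, and 2 of its 3 kept probe sets stood higher, the brightest having a 10-array difference of 0.83. ZCCHC3, a zinc-finger protein that binds nucleic acids, read 4.01, 4.33 and 2.49 in GV pools and 5.16, 10.71 and 9.05 in MII pools. WSB2, a substrate receptor of a ubiquitin ligase, read 4.08, 5.05 and 2.04 in GV pools and 7.16, 9.99 and 9.58 in MII pools. The remaining 2 of these 15 genes, RFX5 and ZMYM5, had differences of 5.27 and 5.01 with 10 arrays.

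**Figure D3:**
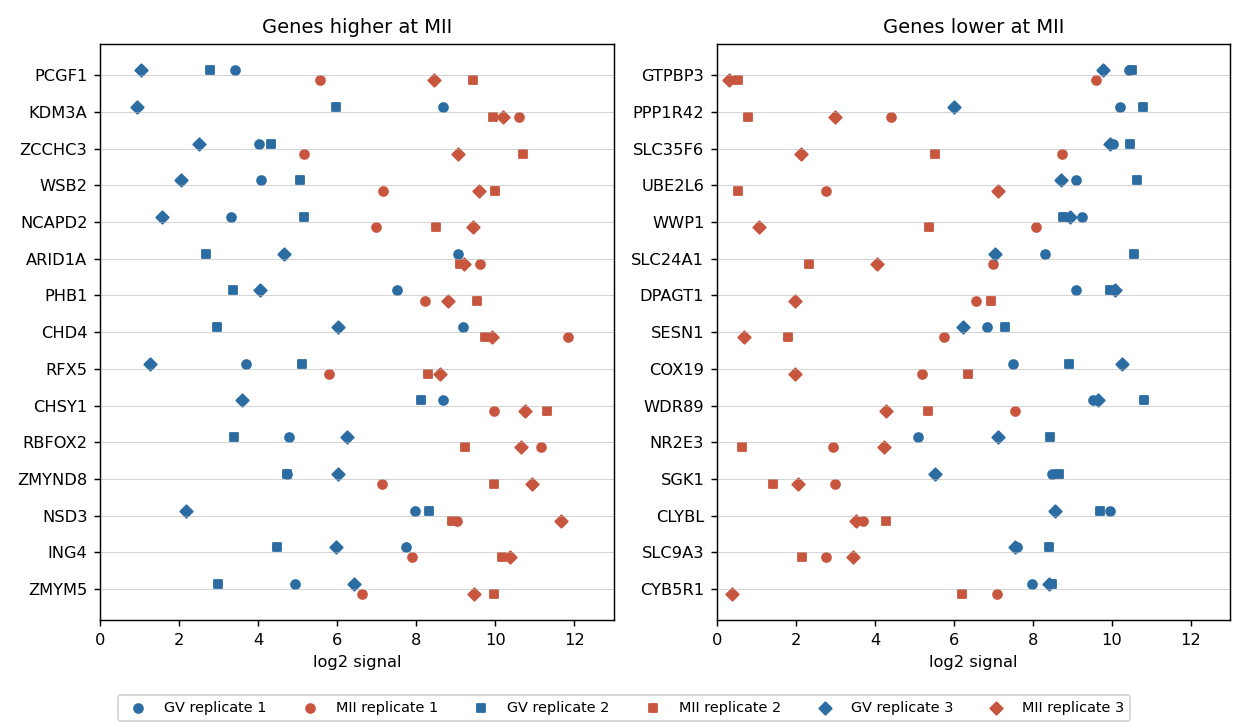
Log2 values in the 3 GV and 3 MII pools for the 15 genes higher and the 15 lower at MII with the largest differences in the 10-array fit, among genes that stood in both and whose groups did not overlap. Every MII point lies on one side of every GV point, as the choice of genes requires.

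Some genes that stood higher were read at bright levels. SRRM2, a scaffold of splicing speckles, read 10.57, 9.03 and 9.90 in GV pools and 13.12, 11.78 and 12.70 in MII pools. DDX46, an RNA helicase of the spliceosome, read 9.11, 9.85 and 8.11 in GV pools and 11.71, 11.80 and 13.21 in MII pools. MAP1B, a microtubule-associated protein, read 10.13, 8.96 and 8.40 in GV pools and 11.78, 11.95 and 12.15 in MII pools. In these 3 genes every MII value exceeded every GV value, and the lowest value was above 8. PCBP2, an RNA-binding protein of poly(C) sequences, read 9.75, 9.92 and 7.64 in GV pools and 11.14, 11.90 and 12.29 in MII pools. HSPH1, a large heat shock protein, read 8.62, 7.98 and 5.98 in GV pools and 10.22, 11.01 and 11.95 in MII pools on the probe set that stood, but its brightest probe set read 12.12, 12.16 and 14.01 in GV pools and 12.19, 11.78 and 10.68 in MII pools, so its direction was not settled. ATF1, a transcription factor that answers to cyclic AMP, read 8.26, 5.46 and 7.33 in GV pools and 13.57, 10.47 and 10.80 in MII pools. In PCBP2 and ATF1 all MII values lay above all GV values, the lowest GV value being 7.64 in PCBP2 and 5.46 in ATF1.

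Among the genes that stood lower, GTPBP3 had the largest difference. This enzyme modifies mitochondrial transfer RNA, and it read 10.44, 10.52 and 9.78 in GV pools and 9.59, 0.52 and 0.31 in MII pools (-6.77, SE 2.17, with 12 arrays and -9.74, SE 2.21, with 10). Its MII values in replicates 2 and 3 were near 0, while the replicate 1 pair differed by -0.85. DPAGT1, which starts the sugar chain of N-glycosylation, read 9.09, 9.96 and 10.07 in GV pools and 6.57, 6.93 and 1.98 in MII pools. UBE2L6, a ubiquitin-conjugating enzyme that also carries ISG15, read 9.09, 10.64 and 8.71 in GV pools and 2.77, 0.53 and 7.11 in MII pools. SGK1, a kinase induced by serum and glucocorticoids, read 8.49, 8.66 and 5.51 in GV pools and 2.99, 1.41 and 2.06 in MII pools. COX19, needed to assemble cytochrome c oxidase, read 7.50, 8.92 and 10.26 in GV pools and 5.18, 6.35 and 1.97 in MII pools. SESN1, a sestrin that restrains the mTOR pathway under stress, read 6.84, 7.28 and 6.24 in GV pools and 5.75, 1.80 and 0.68 in MII pools. In each of these genes at least 1 MII value lay under 4, among the dimmest readings of its array. NR2E3 and SLC24A1, known from photoreceptors, read 5.08, 8.44 and 7.12 and 8.31, 10.56 and 7.05 in GV pools and 2.93, 0.63 and 4.22 and 6.99, 2.33 and 4.06 in MII pools. WWP1, a ubiquitin ligase, read 9.24, 8.77 and 8.93 in GV pools and 8.08, 5.36 and 1.07 in MII pools. The remaining 6 of the 15 lower genes, PPP1R42, SLC35F6, WDR89, CLYBL, SLC9A3 and CYB5R1, had 10-array differences of -6.52, -6.38, -5.41, -5.24, -5.19 and -5.15.

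A smaller number stood lower at bright levels. STAG3, the cohesin subunit that works only in meiosis, read 10.36, 13.81 and 12.43 in GV pools and 6.42, 9.53 and 9.15 in MII pools (-3.83, SE 1.35, and -3.78, SE 1.46). The differences within replicate numbers 1, 2 and 3 were -3.94, -4.29 and -3.27, so the replicate 1 pair went with the others. CHIC2 read 9.49, 11.76 and 12.29 in GV pools and 7.70, 7.23 and 7.68 in MII pools, and TMEM185B, a membrane protein, read 12.12, 13.52 and 14.26 in GV pools and 11.02, 9.64 and 9.50 in MII pools. NXT1, a cofactor for export of messenger RNA from the nucleus, read 9.50, 11.69 and 12.50 in GV pools and 6.71, 8.06 and 8.89 in MII pools. HAX1, a mitochondrial protein that restrains apoptosis, read 10.47, 12.36 and 13.05 in GV pools and 9.58, 7.82 and 8.49 in MII pools. DNAJC9, a chaperone of histones, read 8.89, 11.28 and 10.42 in GV pools and 7.38, 8.39 and 6.07 in MII pools, and TIMM22, a pore of the inner mitochondrial membrane, 10.35, 10.03 and 10.28 in GV pools and 8.03, 7.77 and 6.71 in MII pools. In all of these every MII value lay under every GV value and none lay under 6.

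A fit limited to fewer arrays gave calls where the larger fits gave none. The fit of the 4 prepubertal arrays of replicates 2 and 3 alone, with 2 residual degrees of freedom, called 43 probe sets at a limma adjusted p under 0.05 (0.298%), 35 lower at MII and 8 higher, with a lowest adjusted p of 0.00107. Of these 43, 13 stood in both of the larger fits. The calls depended on the scaling and on single arrays. Quantile normalisation and median centring each left 0 calls, with lowest adjusted p of 0.157 and 0.239, as did leaving out GV replicate 2 or GV replicate 3. Without MII replicate 2 there were 16 and without MII replicate 3 there were 18. All 43 stayed under an unadjusted p of 0.05 after quantile normalisation, but 22 did after median centring. Each refit without 1 of the 4 arrays left a stage with 1 array and the fit with 1 residual degree of freedom. All 43 kept their sign in each of these refits. The same arrays chose the 43, so these counts only describe them. With the replicate block, which leaves 1 residual degree of freedom, 154 were called (1.07%), 80 higher and 74 lower. The replicate 1 pair had the same sign for 23 of the 43 (53.5%), against 57.6% of all probe sets.

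Most of the 35 lower calls were bright genes, 27 of them in the brightest of the 4 level groups, with a median of 13.75 at GV and 10.46 at MII and a median difference of -3.09. Only 3 of them had a value under 4 on these 4 arrays. COX5B, a subunit of cytochrome c oxidase, read 13.76, 12.68 and 14.35 in GV replicates 1, 2 and 3 and 14.59, 9.91 and 10.93 in MII replicates 1, 2 and 3. NDUFA12, of complex I, read 14.51, 13.68 and 14.57 in GV pools and 13.73, 11.56 and 11.78 in MII pools, and ATP5IF1, an inhibitor of ATP synthase, 14.57, 14.24 and 15.69 in GV pools and 15.39, 12.66 and 12.72 in MII pools. In these 3 genes the MII values of replicates 2 and 3 lay below all 3 GV values, while the replicate 1 differences were 0.84, -0.77 and 0.82. VDAC3, a channel of the outer mitochondrial membrane, read 11.43, 13.28 and 13.80 in GV pools and 12.20, 10.84 and 10.08 in MII pools. SSBP1, which binds mitochondrial DNA, read 12.06, 13.80 and 13.04 in GV pools and 12.52, 9.98 and 11.08 in MII pools. MRPS6, a mitochondrial ribosomal protein, read 12.55, 14.72 and 14.38 in GV pools and 12.95, 10.98 and 9.55 in MII pools. Counted by list, the calls held 3 of 80 kept genes of the respiratory chain, 1 of 67 cytosolic and 1 of 64 mitochondrial ribosomal proteins, and 0 of 38 genes of glycolysis and the citric acid cycle, beside 43 of all 14409 probe sets (0.298%). RPL38 was the cytosolic one, at 15.31, 13.72 and 13.95 in GV pools and 14.48, 10.99 and 11.23 in MII pools. The lists take each gene's brightest probe set, while the 0.298% covers dim probe sets too. Of the 43 calls, 33 lay in the brightest level group, which held 3602 probe sets.

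Among the other lower calls, PRDX2, a peroxiredoxin, read 13.03, 14.59 and 14.80 in GV pools and 13.45, 12.77 and 12.48 in MII pools. PFDN1, a prefoldin subunit that feeds actin and tubulin to the chaperonin, read 11.92, 13.44 and 14.06 in GV pools and 12.02, 11.03 and 10.81 in MII pools. TUBB2B, a beta-tubulin, had the smallest difference, -1.46, and read 15.78, 16.03 and 16.50 in GV pools and 16.42, 14.57 and 15.04 in MII pools. RARS1, an arginyl-tRNA synthetase, read 12.46, 15.04 and 14.64 in GV pools and 11.32, 12.12 and 12.43 in MII pools. Of the 8 higher calls, 4 had a symbol. UBE2C, the ubiquitin-conjugating enzyme of the anaphase-promoting complex, read 9.25, 7.41 and 10.60 in GV pools and 10.13, 12.98 and 13.04 in MII pools. PFN1, a profilin that feeds actin filaments, read 10.56, 11.12 and 8.69 in GV pools and 10.43, 13.64 and 13.07 in MII pools. SESN2 and PCNP had differences of 3.65 and 5.62. UBE2C and PFN1 were higher at MII in replicates 2 and 3, and the differences within the replicate 1 pair were 0.88 and -0.13.

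**Figure D4:**
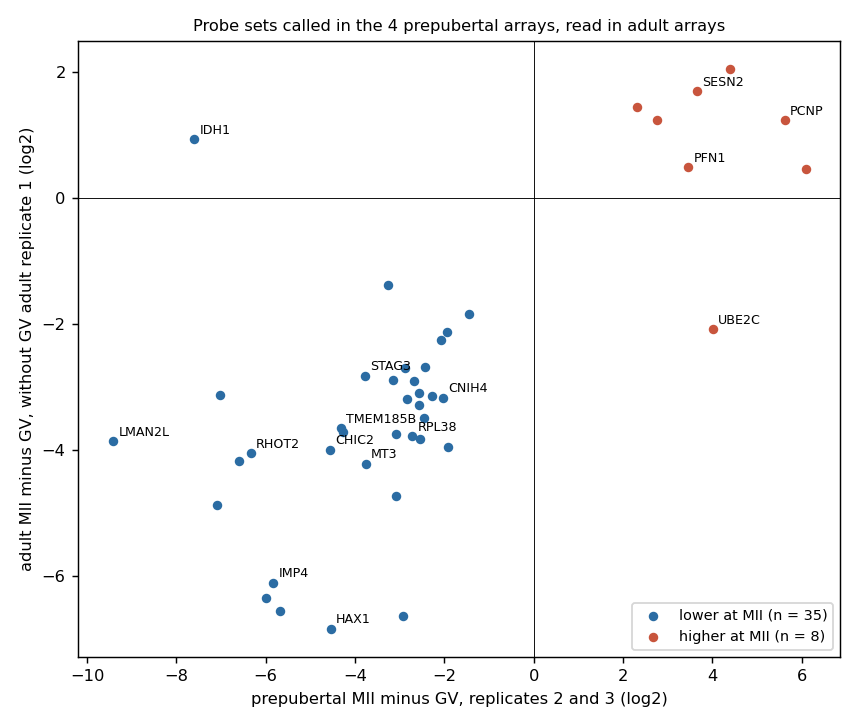
The 43 probe sets called in the fit of prepubertal replicates 2 and 3, with their prepubertal difference MII minus GV (log2) on the x axis and the adult difference, without adult GV replicate 1, on the y axis. Of the 43, 41 lie in the quadrants where both differences have one sign; UBE2C and IDH1 do not.

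The adult difference between the stages was not used to choose these probe sets. The adult arrays did enter the level filter and, in the 12- and 10-array fits, the estimate of the spread. The title letter fell on GV arrays only at both ages, and its part in a shared sign was not tested. For the 273, the adult difference MII minus GV had the same sign in 235 (86.1%), against 65.9% of all kept probe sets. Without adult GV replicate 1, which read low for the oocyte genes, it was 224 (82.1%) against 62.5%. All kept probe sets are not matched to the 273 in level or direction, and the part of level in these shares was not tested. The 118 higher probe sets had a median adult difference of 1.86 without that array and the 155 lower ones -1.18, beside a median of 0.05 over all. For the 43 called in 4 arrays the adult sign was the same in 41 (95.3%), and in 38 (88.4%) with adult GV replicate 1. Among the 1525 probe sets of the brightest level group that read lower at prepubertal MII, the share was 71.9% without that array and 39.5% with it, and for the 35 lower calls it was 97.1% and 88.6%. RBFOX2 had an adult difference of 5.48 (SE 1.41), CHSY1 of 6.12 (SE 1.81), ARID1A of 4.76 (SE 1.77) and SLC35F6 of -7.17 (SE 1.87) without that array. GTPBP3, DPAGT1, WWP1, CLYBL and RFX5 had adult differences of -0.05, 0.99, -0.67, 0.81 and -0.53, each within 1 SE of 0.

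The difference between the ages was tested as an interaction in limma. No probe set passed after adjustment in either fit (lowest adjusted p = 1), and 174 (1.21%) and 201 (1.39%) were past an unadjusted p of 0.05 with 12 and 10 arrays. In the 12-array fit, the 4 named genes with the smallest unadjusted p in each direction, among those with the same sign in the 10-array fit, were REV3L, NDUFA7, DCTN3 and HMGXB4, where the prepubertal difference was the higher, and PKP2, DAPK1, SLC25A16 and COMMD4, where it was the lower. HMGXB4, a high-mobility-group protein, read 4.31, 7.68 and 5.86 at prepubertal GV and 8.49, 11.99 and 11.19 in MII pools, and its adult difference was -1.57 with 12 arrays. Its adult values were 9.03, 11.16 and 11.49 at GV and 11.04, 11.58 and 4.35 at MII, so that fall rested on adult MII replicate 3. COMMD4 read 5.90, 8.76 and 8.80 in GV pools and 1.55, 2.54 and 5.47 in MII pools, and its adult difference was 1.53. DAPK1, a kinase linked to cell death, read 8.63, 9.64 and 11.14 in GV pools and 7.81, 8.52 and 7.24 in MII pools, beside an adult difference of 4.19. In these 3 genes the prepubertal stages did not overlap, as in 9.72% of all kept probe sets. PKP2, a plaque protein of desmosomes, had the largest interaction of these 8, -7.45 (SE 2.19), with overlapping prepubertal stages.

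Of all 6842 kept genes, 58 were past an unadjusted p of 0.05 in the higher and 112 in the lower direction with 12 arrays, 41.0% read higher and the median difference was -0.28, and the counts of the gene lists that follow are to be read beside these. Of 24 kept genes for entry into M phase, 15 read higher and 9 lower with 12 arrays (median 0.39), and none was past an unadjusted p of 0.05. CCNB1, the cyclin of maturation promoting factor, read 6.64, 12.77 and 13.47 in GV pools and 8.55, 14.03 and 13.38 in MII pools, and CDK1, its kinase, 8.63, 11.63 and 11.51 in GV pools and 6.55, 10.70 and 9.75 in MII pools. MOS, the kinase that holds the egg at metaphase, read 3.90, 10.81 and 11.84 in GV pools and 7.22, 12.41 and 12.94 in MII pools. AURKA, a spindle kinase, read 10.23, 16.40 and 16.54 in GV pools and 11.53, 16.26 and 16.37 in MII pools. All 4 genes overlapped between stages. Within replicate numbers, MOS was higher at MII and CDK1 lower at MII in each of the 3. One direction held in all 3 numbers for 33.6% of all kept probe sets. CDC25C, a phosphatase that activates CDK1, read 6.87, 12.46 and 12.37 in GV pools and 4.74, 10.34 and 10.60 in MII pools, lower at MII in each replicate number. PPP2R5C, a regulatory subunit of protein phosphatase 2A, read 8.95, 8.91 and 7.35 in GV pools and 10.32, 9.68 and 9.71 in MII pools and did not overlap, and RPS6KA1, a kinase downstream of MOS, read 9.50, 6.50 and 8.32 in GV pools and 6.24, 5.78 and 5.87 in MII pools and did not overlap either. Neither stood in both, and 9.72% of all kept probe sets did not overlap.

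Of 24 genes for the anaphase-promoting complex and the spindle checkpoint, 13 read higher and 11 lower, and ZW10 stood higher in both fits. ZW10, which brings dynein to kinetochores, read 4.49, 3.71 and 7.54 in GV pools and 7.89, 9.62 and 9.38 in MII pools, a difference of 3.72 (SE 1.53) and 3.88 (SE 1.84). FBXO5, the inhibitor EMI1 of the complex, read 7.29, 11.32 and 12.41 in GV pools and 6.65, 8.54 and 9.98 in MII pools, the lowest difference of the list at -2.61 with 10 arrays. BUB1B, a checkpoint kinase, read 7.72, 11.16 and 8.90 in GV pools and 6.89, 12.19 and 12.13 in MII pools. Of 23 kept genes for cohesin and centromeres, 8 read higher and 15 lower with 12 arrays and STAG3 alone stood lower. RAD21, the mitotic cohesin subunit, read 12.41, 12.33 and 12.07 in GV pools and 12.46, 12.77 and 12.70 in MII pools, a difference of 0.54 with 10 arrays. BIRC5, of the chromosomal passenger complex, read 9.54, 10.20 and 11.60 in GV pools and 11.95, 12.53 and 12.52 in MII pools. Every MII value lay above every GV value, as in 3.66% of all kept probe sets. Of 41 spindle and motor genes none stood in both, and of 50 genes of the nuclear envelope and pore 1 did, NUP214, higher at 4.75, 6.16 and 7.36 in GV pools and 8.58, 8.69 and 11.84 in MII pools.

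**Figure D5:**
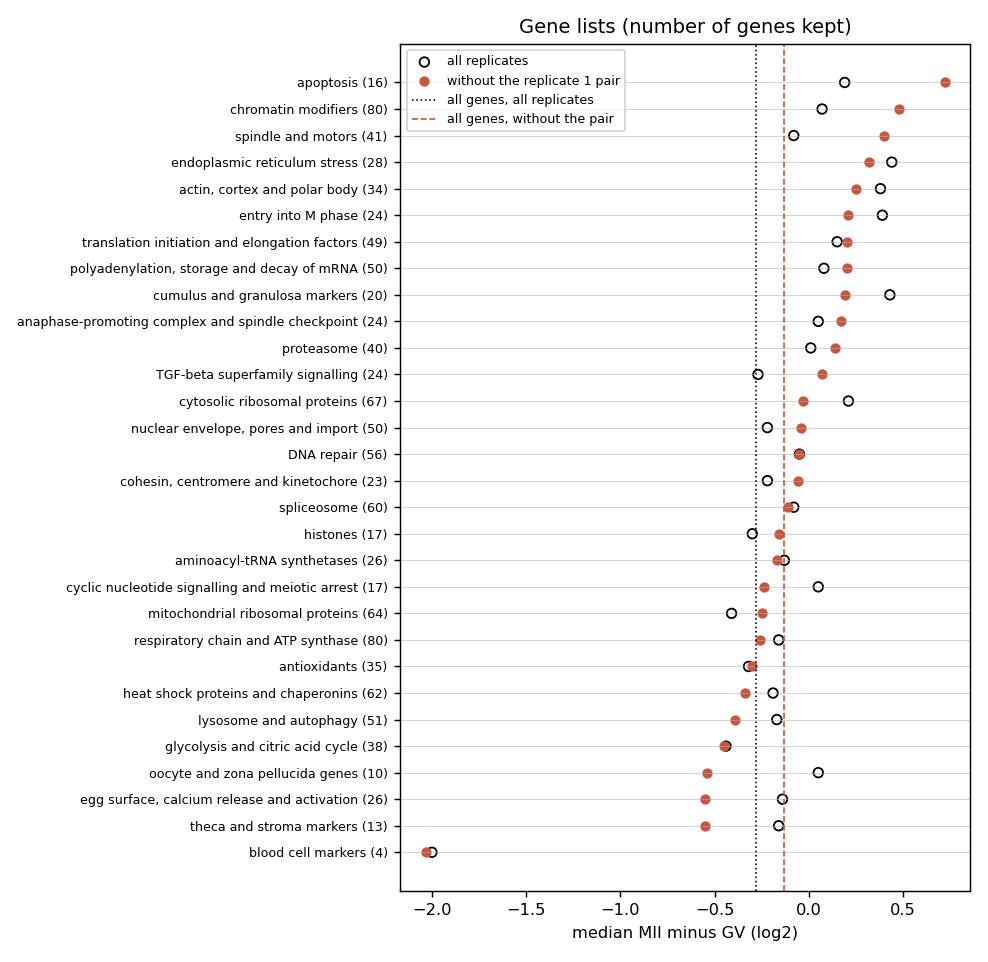
Median difference MII minus GV (log2) of each gene list in the 12-array and the 10-array fit, with all kept genes for reference. List medians lie between -2.03 and 0.72, those of the 4 blood markers being the lowest.

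Of 50 kept genes that store, lengthen or degrade messages, 29 read higher and 21 lower with 12 arrays (median 0.08) and none was past an unadjusted p of 0.05 in that fit, beside 58 higher and 112 lower of all 6842 kept genes. PAPOLA, the canonical poly(A) polymerase, read 10.20, 9.08 and 10.99 in GV pools and 11.80, 12.65 and 12.55 in MII pools, and CPSF1, of the cleavage and polyadenylation factor, 3.29, 4.57 and 6.53 in GV pools and 7.21, 7.70 and 7.74 in MII pools. CPSF2, of the same factor, read 10.35, 11.36 and 10.78 in GV pools and 9.72, 8.62 and 7.09 in MII pools. In PAPOLA, CPSF1 and CPSF2 the stages did not overlap, PAPOLA and CPSF1 being higher at MII and CPSF2 lower. Of all kept probe sets 9.72% did not overlap, so the lack of overlap only describes these genes. YTHDF3, a reader of methylated RNA, read 9.42, 7.28 and 8.74 in GV pools and 9.98, 9.73 and 10.13 in MII pools without overlap. CNOT1, the scaffold of the deadenylase complex, read 7.23, 8.93 and 9.65 in GV pools and 8.33, 8.22 and 6.29 in MII pools, with overlap.

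Among all 6842 kept genes, 41.0% read higher with 12 arrays and 46.7% with 10, and 42 stood higher and 61 lower. Of 49 translation factors, 27 read higher and 22 lower, and EIF6 and EIF2D stood lower. EIF6, which keeps large ribosomal subunits from joining, read 9.74, 9.51 and 9.68 in GV pools and 8.09, 6.59 and 4.24 in MII pools. EIF2D, linked to ribosome recycling, read 8.48, 9.80 and 11.40 in GV pools and 6.33, 8.99 and 4.78 in MII pools, with overlap. Of 67 cytosolic ribosomal proteins, 42 read higher with 12 arrays (62.7%) and 33 with 10 (49.3%), and the median went from 0.21 to -0.03. RPS2 stood higher, at 9.35, 5.92 and 10.03 in GV pools and 11.23, 11.94 and 11.40 in MII pools. Of 64 mitochondrial ribosomal proteins 23 read higher and 41 lower with 12 arrays (median -0.41) and 30 and 34 with 10 (median -0.25), and MRPL41 stood lower at 8.69, 9.67 and 7.34 in GV pools and 2.53, 6.57 and 2.19 in MII pools. Respiratory chain genes had 36 higher and 44 lower of 80, and none stood in both. PARD6B, a polarity protein, stood higher at 3.85, 4.43 and 10.83 in GV pools and 7.75, 10.95 and 11.35 in MII pools, with overlap, and HEXA, a lysosomal hexosaminidase, stood lower at 7.26, 9.62 and 8.93 in GV pools and 9.01, 0.50 and 3.31 in MII pools, with overlap, its replicate 1 pair going the other way. The 10 oocyte genes had medians of 0.05 and -0.54 with 12 and 10 arrays, and none was past the threshold. KPNA7, an importin of the oocyte, read 7.87, 13.81 and 14.49 in GV pools and 10.27, 15.25 and 15.69 in MII pools, and NLRP5, of the subcortical complex, 3.90, 10.17 and 13.69 in GV pools and 5.17, 10.36 and 9.90 in MII pools.

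The summed levels of the markers of other cell types, given above, differed more between replicate 1 and the other replicates than between the stages. CD44, a receptor of hyaluronan, read 4.52, 4.33 and 1.29 in GV pools and 6.16, 7.14 and 6.0 in MII pools and was the only one of 20 kept cumulus markers past an unadjusted p of 0.05 with 12 arrays, but not with 10. PTX3 was past it with 10 arrays and not with 12. For TNFAIP6, a hyaluronan-binding protein of cumulus cells, the values were 13.29, 6.21 and 4.56 before and 13.81, 4.26 and 4.28 after maturation. Of 4 kept blood markers all read lower at MII, with medians of -2.00 and -2.03. The part of these cell types in the results above was not tested.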

How the data were processed

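Expression was measured on 12 one-colour Affymetrix bovine arrays. The deposited values were log2 signals that the authors made with MAS5, per the submitters' processing notes, and each array's trimmed mean (2% from each end) was 500.0 to 500.3 on the linear scale. Values ran from 0 to 21.83. The number of arrays, not a read depth, limits the precision. Of 24016 probe sets that were no controls, 14409 with a mean above the 40th percentile (5.57) were kept. Of all, 13292 had 1 gene symbol in the platform annotation, 86 several and 10638 none; 99.8% of the gene numbers were found in the RefSeq table for ARS-UCD2.0. A model of 4 group means was fitted in R 4.3.3 by limma 3.58.1 (lmFit, eBayes with an intensity trend), with Benjamini-Hochberg adjustment over all kept probe sets. The fit used 12 arrays, and 10 without both prepubertal replicate 1 arrays. Per gene, lists used the brightest probe set.

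Arrays of one replicate number correlated in their deviations from the prepubertal stage means at 0.609, 0.149 and 0.306 across probe sets. All are over 0.1, and on that ground, from the data and not from the labels, the number was tried as a block. It entered only the prepubertal fits named with the replicate block. The fits that held both ages, which gave the probe sets that stood in both and the interaction, had no replicate term. Deviations within a stage are taken from their own mean and so depend on each other. Passing 0.1 therefore does not show that the arrays were paired. Between unlike numbers, GV replicate 3 and MII replicate 2 correlated at 0.307 and GV replicate 2 and MII replicate 3 at 0.145, so replicates 2 and 3 were paired no better by like than by unlike numbers.

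The genes named were those with the largest 10-array difference among genes that stood in both fits with no overlap between stages (15 each way), members of the gene lists, the genes called in the 4-array fit, and the 4 smallest interaction p each way with 12 arrays. Genes bright at both stages were picked after their values were seen. The members and the lists were chosen with earlier results of these data known. The method was run on simulated data with added changes. That check asked for the sign and the mean size of the changes, not for the number called after adjustment. Its noise had the same spread on all arrays, unlike these data, so it does not show how many changes the fits could call. Quantile normalisation, median centring, a pseudocount of 32, other filters, array weights, the title letter, prepubertal arrays alone, the replicate block and leaving out each array were tried. Rescaling the 4-array fit and leaving out its arrays were chosen after seeing the data.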

Additional observations from a re-analysis of the deposited data

How the results depend on the processing

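With any 1 prepubertal array left out, the 12-array, the 10-array and both interaction fits in limma gave 0 adjusted calls. Array weights gave 5 adjusted calls with 12 arrays. Leaving out arrays in turn, the number past an unadjusted p of 0.05 ran from 250 to 963 with 12 arrays and from 270 to 623 with 10. The interaction ran from 122 to 289 with 12 arrays and from 112 to 425 with 10. Those that stood in both ran from 95 to 357, 29 to 123 of them higher and 43 to 234 lower. In the 4 prepubertal arrays of replicates 2 and 3, the calls ran from 0 to 18.

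With array weights, 2687 and 1184 were past the unadjusted threshold with 12 and 10 arrays, 992 and 539 for the interaction, and 995 stood in both (492 higher, 503 lower). Without a filter, which tested all 24016 probe sets, the numbers were 1093 and 916. The 12-array interaction had 292, and 495 stood in both (355 lower). A filter at the 60th percentile tested fewer than 14409. There 268 were past the threshold with 12 arrays, 112 and 132 for the interactions, and 169 stood in both (71 lower). In the prepubertal arrays alone, 43 were called after adjustment and 1512 unadjusted without the replicate 1 pair, and 182 stood higher. With the replicate block, 1455 and 1573 were past the unadjusted threshold, 154 after adjustment without the replicate 1 pair, and 872 stood in both (460 higher, 412 lower). Median centring gave 323 higher and 70 lower, the title letter 318 and 88, quantile normalisation 59 lower and a pseudocount of 32 gave 96 lower. Quantile normalisation and centring each left 0 calls in the 4 arrays. Without adult GV replicate 1, 415 and 441 interactions, 1007 probe sets with 10 arrays and 402 that stood in both, 182 of them higher, were found. The causes were not tested. The results of named genes were counted once for each gene and setting. By that count 794 kept direction and side of the threshold, 142 lost the threshold and 0 reversed. Many of these genes were named for large differences on these same arrays, so the lack of reversals only describes them.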

Other observations

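Genes with several probe sets gave another view of the values that stood in both fits. Of the 153 genes, 75 had a second kept probe set, and 87 of the 127 other probe sets (68.5%) had the same sign. They were read on the same arrays, and the like share over all genes is not given, so this only describes them. AFG3L2, a protease subunit of the inner mitochondrial membrane, CHSY1, NSD3 and STRADA, a pseudokinase that activates LKB1, each had 2 probe sets that stood in both, all of them higher at MII.

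The 3 replicate numbers described the change in different ways. Across probe sets, the MII minus GV differences correlated at 0.26 between numbers 1 and 2, 0.01 between 1 and 3 and 0.12 between 2 and 3. Their medians were -0.49, -0.42 and 0.10, and their SDs 2.04, 2.47 and 2.34.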
